A study of Mus musculus with 56 samples.

Results

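Fc gamma receptors bind the constant part of IgG antibodies and tie antibody to the cells of innate immunity. In mice, Fcgr1, Fcgr3 and Fcgr4 encode the ligand-binding chains of the activating receptors, Fcgr2b encodes the single inhibitory receptor, and Fcer1g encodes the common gamma chain, which carries the activating signal and holds the activating receptors at the surface. Macrophages, monocytes and neutrophils carry most of them, B cells use Fcgr2b, and NK cells use Fcgr3 with Fcer1g. Conventional CD8+ T cells, fibroblasts and carcinoma cells are not among their main carriers.

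These 5 genes were chosen by gene symbol, with earlier results of the same data in view, and all 5 were listed in each of the 10 deposited tables, of 53819 or 55453 genes. RNA was sequenced in bulk from cells that had been sorted out of rectal tumors, harvested on day 14. The tumors were grown in female C57BL/6J mice aged 6 to 8 weeks from the mouse colon carcinoma line MC38, which the study names as MC38-luc where it was implanted and as MC38-GFP where tumor cells were sorted. The labels place 5 untreated and 10 irradiated tumors in each of 3 sorts, namely CD8 T cells gated as CD45+ CD8+, GFP+ tumor cells and cancer-associated fibroblasts (CAFs), gated on podoplanin, PDGFRa and Ly6c without CD45 or CD31. Irradiation was SCRT, short course radiotherapy of 5 Gy in each of 5 daily fractions on days 9 to 13. Another 11 samples of CD8 T cells were taken from irradiated mice given IgG (5 by the labels) or an antibody blocking the type I interferon receptor, anti-IFNAR (6 by the labels), and the study's text gives other numbers for these arms.

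The deposited tables give no value per library. What they give for each gene, besides the authors' own comparisons of groups, is the authors' mean normalized count, which is a read count corrected for library size, then averaged across every library that entered a fit. That mean was the same for every gene in all tables of a fit, which left 3 fits. One covered CD8 T cells from untreated or SCRT tumors (15 libraries by the labels), one covered CD8 T cells of the anti-IFNAR experiment (11 libraries) and one covered CAFs and tumor cells together (30 libraries). Each value below is therefore 1 mean over treated and untreated tumors, with no spread between replicates, so no test could be made and no difference between treatments is described. The depth of each library is unknown from these values. In bulk samples of this kind, fewer cells of a type and less RNA per cell cannot be told apart.

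The genes sit close together, apart from Fcgr1. In the GENCODE annotation of GRCm38, Fcgr2b, Fcgr4 and Fcgr3 are consecutive protein-coding genes on chromosome 1, in that order, with Fcer1g farther along the same chromosome. Fcgr1 lies on chromosome 3. Reads of 100 bases can be exchanged within this family only between Fcgr3 and Fcgr2b. Over 509 aligned coding bases, 96.5% were identical between these genes, against 57.0% to 64.2% for the other pairs of receptors. Their longest identical run, 129 bases, is shown because a read falling inside it cannot be assigned to either gene. It opens the following stretch of 200 coding bases from exons 3 and 4, both on the minus strand of GRCm38, where the capital letter marks the single base that differs.

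Fcgr3, chr1:171054096-171057792: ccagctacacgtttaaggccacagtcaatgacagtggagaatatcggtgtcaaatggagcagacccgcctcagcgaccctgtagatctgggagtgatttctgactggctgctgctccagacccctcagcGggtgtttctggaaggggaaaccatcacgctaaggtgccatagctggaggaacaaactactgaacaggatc
Fcgr2b, chr1:170966603-170968081: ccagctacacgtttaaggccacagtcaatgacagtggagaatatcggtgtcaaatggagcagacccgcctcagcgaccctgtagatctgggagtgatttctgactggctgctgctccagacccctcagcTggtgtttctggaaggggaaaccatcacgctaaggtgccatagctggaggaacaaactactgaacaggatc

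Of the 100-base runs of the Fcgr3 transcript, 44 of 1248 (3.53%) also occurred in Fcgr2b. Of the 3445 runs of Fcgr2b, 234 (6.79%) occurred in transcripts of other genes, 44 of them in Fcgr3. The transcripts of Fcgr1, Fcgr4 and Fcer1g shared 0 such runs with any other gene. On the opposite strand, 155 exonic bases of Fcgr2b overlap Gm38204, and the library kit did not mark strand, so reads there cannot be told apart. How the authors' counting treated shared reads is not given in the sources used here, so the values of Fcgr2b, and less so of Fcgr3, carry this uncertainty.

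The 5 genes were abundant in the bulk RNA of the CD8 T cell sorts. In the fit of untreated and SCRT tumors, the authors' mean normalized count was 1104 for Fcgr1, 4837 for Fcgr3, 1529 for Fcgr4, 2844 for Fcgr2b and 5477 for Fcer1g. These means stood above those of 73.9% (Fcgr1) to 94.5% (Fcer1g) of the 22081 genes with a mean of at least 1. Summed, the 5 genes took 511.2 of every 1000000 normalized counts in the fit, a quantity given below as a share per 1000000.

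The second CD8 T cell fit, from the anti-IFNAR experiment, held them as well. Here the authors' mean was 891 for Fcgr1, 2141 for Fcgr3, 1234 for Fcgr4, 1833 for Fcgr2b and 1073 for Fcer1g. They stood above 89.9% (Fcgr1) to 96.6% (Fcgr3) of the 21444 genes with a mean of at least 1. Their sum was 666.3 per 1000000 of all means. In this fit 4 ribosomal RNA genes (mt-Rnr1, mt-Rnr2, Rn18s and 5_8S_rRNA) took 18.1% of the summed mean, against 0.238% in the other CD8 T cell fit. These fits list 53819 and 55453 genes, in that order, and a gene absent from a list would not be counted. Whether all 4 are listed in both fits was not checked.

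The fit of CAFs and tumor cells held the same genes at lower levels. The authors' mean was 128.3 for Fcgr1, 150.6 for Fcgr3, 84.1 for Fcgr4, 155.3 for Fcgr2b and 289.1 for Fcer1g. Between 49.2% (Fcgr4) and 57.3% (Fcer1g) of the 21359 genes whose mean reached 1 lay below them, but among genes whose mean reached 10 only 24.2% (Fcgr4) to 36.3% (Fcer1g) did. Their sum was 29.2 per 1000000. Since CAFs and tumor cells were averaged together, the share of each sort in these means is unknown.

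**Figure D1:**
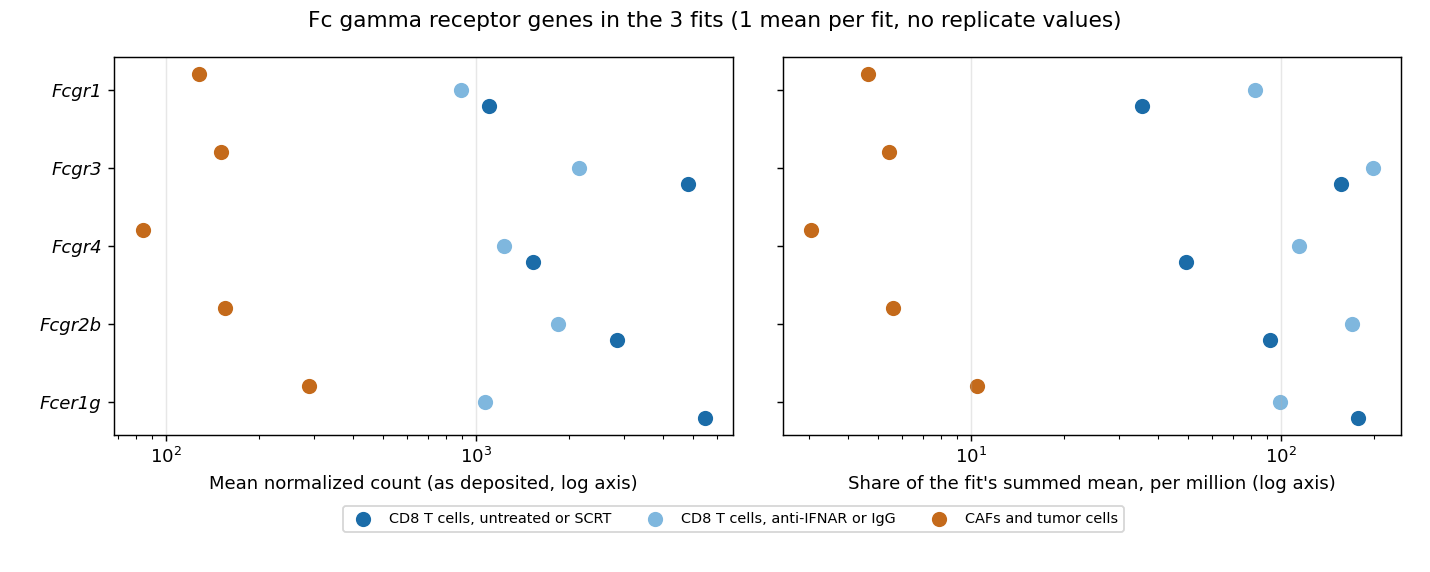
Level of the 5 Fc gamma receptor genes in the 3 fits, as the authors' mean normalized count (left) and as the share per 1000000 of all means of the fit (right), both on log axes, with 1 point per gene and fit. All 5 genes lie lowest in the fit of CAFs and tumor cells, and in the right panel Fcer1g is the only one of them lower in the anti-IFNAR fit than in the other CD8 T cell fit.

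Because the fits were normalized separately, a gene was compared between them on its share of the summed mean, as a description. Against CAFs and tumor cells, the share in CD8 T cells of untreated and SCRT tumors was 7.71-fold higher for Fcgr1, 28.8-fold for Fcgr3, 16.3-fold for Fcgr4, 16.4-fold for Fcgr2b and 17-fold for Fcer1g. For the CD8 T cells of the anti-IFNAR experiment the corresponding values ran from 9.55-fold (Fcer1g) to 37.7-fold (Fcgr4). Between both CD8 T cell fits the genes did not shift alike. The share of Fcgr1 and of Fcgr4 was 2.32-fold higher in the anti-IFNAR experiment, that of Fcgr2b 1.85-fold and that of Fcgr3 1.27-fold, whereas the ratio for Fcer1g was 0.562. On the means as deposited all 5 ratios lay below 1, from 0.196 for Fcer1g to 0.807 for Fcgr1 and Fcgr4. The direction for the 4 binding chains therefore depends on the scale. Both scales differ by 1 factor common to all genes, so the order of the 5 ratios is the same on both by construction. The 2 experiments also differ in their mice, treatments, genes listed and measured share of ribosomal RNA. The part of each in these ratios cannot be told apart.

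To set the receptors side by side, each mean was divided by the length of the gene's exons and scaled so that all such values of its fit sum to 1000000, which gives the length-scaled level. In CD8 T cells of untreated and SCRT tumors, the common gamma chain Fcer1g led with a length-scaled level of 590.4, followed by Fcgr3 at 262.5 and Fcgr4 at 114.7. The inhibitory Fcgr2b stood at 46.3 and Fcgr1, the high-affinity receptor, at 40.2. The 3 activating receptors together were 9.02 times the level of Fcgr2b, and Fcer1g was 1.27 times the sum of the 4 binding chains. With no spread known, neighbours in this order such as Fcgr2b and Fcgr1 cannot be said to differ.

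In the anti-IFNAR experiment Fcgr3 (length-scaled level 349.5) and Fcer1g (347.9) stood level, ahead of Fcgr4 (278.5), Fcgr1 (97.6) and Fcgr2b (89.7). Here the activating receptors summed to 8.09 times Fcgr2b, and Fcer1g came to 0.427 times the 4 binding chains. In CAFs and tumor cells, Fcer1g (38.4) again led, before Fcgr3 (10.1), Fcgr4 (7.78), Fcgr1 (5.76) and Fcgr2b (3.12). The activating receptors were 7.58 times Fcgr2b, and Fcer1g was 1.44 times the binding chains. Across the 3 fits the ratio of activating to inhibitory receptor message ran from 7.58 to 9.02, and that of the gamma chain to the binding chains from 0.427 to 1.44. With the length of the longest coding transcript in place of all exons, the first of these ran from 5.21 to 6.52.

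The labelled cell types were then checked against their markers. Cd8b1, which encodes the CD8 beta chain, had an authors' mean of 43081 and 5590 in the CD8 T cell fits and 1.06 in CAFs and tumor cells, and Pdgfra, a marker of the CAF gate, had 183.6, 135.4 and 12488. Cd8b1 was therefore highest in the CD8 T cell fits and Pdgfra in the fit that holds the CAFs. A mean over CAFs and tumor cells together cannot show which of these sorts held Pdgfra. GFP, the gate of the tumor cells, was not checked.

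Macrophage transcripts were detected beside the Fc gamma receptors in every fit. All 8 genes of a macrophage list (Adgre1, Csf1r, Cd68, Lyz2, C1qa, C1qb, Mrc1 and Itgam) had a mean of at least 10 in each fit, and 0 were at 0. All 5 genes of a fibroblast list (Pdgfra, Pdpn, Ly6c1, Col1a1 and Dcn) also reached that mean in each fit, so reaching it does not set macrophage genes apart. In CD8 T cells of untreated and SCRT tumors the macrophage means ran from 751 for Mrc1, the mannose receptor, to 41041 for Lyz2, the myeloid lysozyme, and summed to 2107 per 1000000. In the anti-IFNAR experiment they ran from 590 (Adgre1) to 12107 (Lyz2), with a sum of 2230 per 1000000, and in CAFs and tumor cells from 34.5 (Itgam) to 1402 (Lyz2), with a sum of 101.8 per 1000000. The 5 Fc gamma receptor genes came to 24.3%, 29.9% and 28.6% of these macrophage sums, in that order. Between CD8 T cells of untreated and SCRT tumors and CAFs and tumor cells, the macrophage genes were 6.96-fold (Mrc1) to 38.3-fold (Csf1r) higher, a range that holds all 5 Fc gamma receptor genes. That range is not particular to macrophage genes. The same ratio ran from 0.0345 (Ly6g) to 250 (S100a9) for 4 neutrophil genes, which holds all 5 as well. For 3 NK cell genes it ran from 28.4 (Ncr1) to 7710 (Klrb1c). The part of macrophages in the receptor means was not tested.

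**Figure D2:**
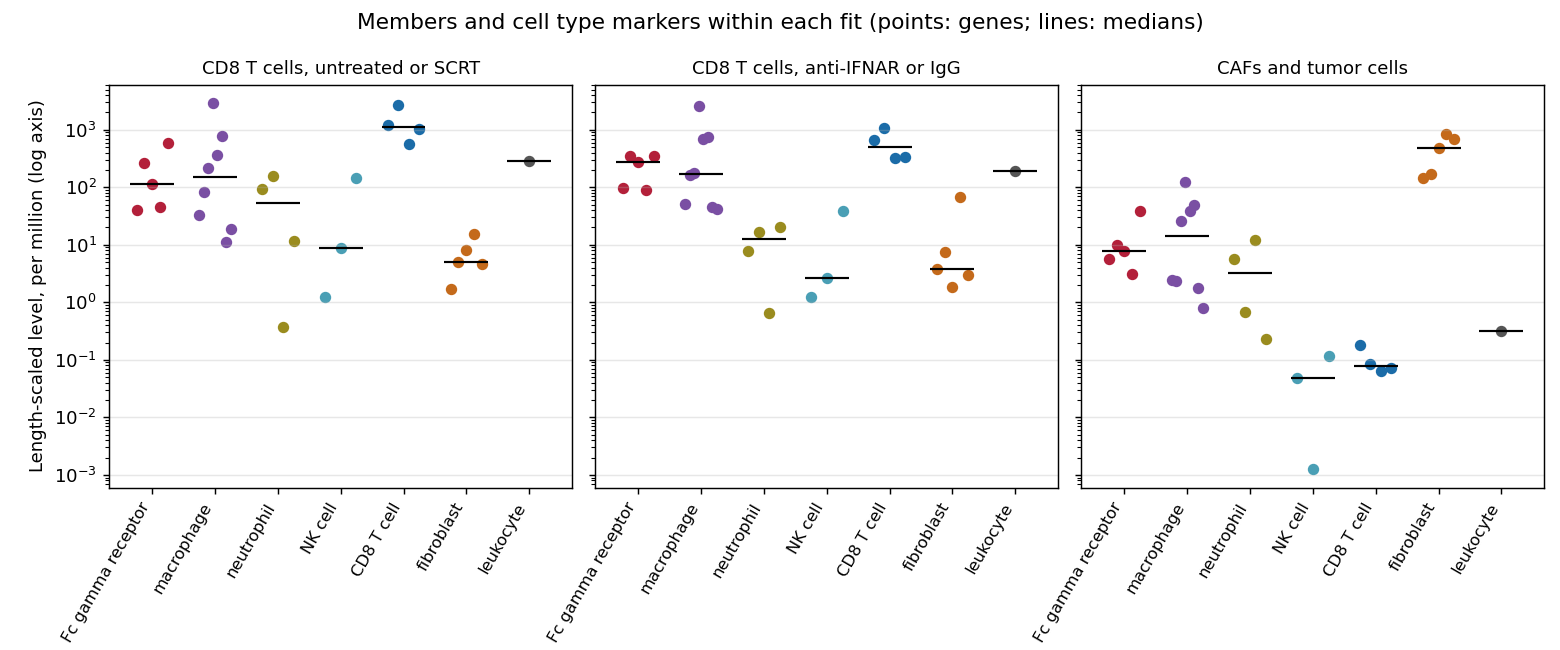
Length-scaled level of the 5 Fc gamma receptor genes and of 6 marker lists within each fit, on a log axis. Points are genes and lines are list medians. The receptor points overlap those of the macrophage list in all 3 fits, where the macrophage medians are 150.9, 170.2 and 14.4.

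On the length-scaled level, Fcer1g stood above 6 of the 8 macrophage genes in CD8 T cells of untreated and SCRT tumors, Fcgr3 above 5, Fcgr4 above 4, and Fcgr2b and Fcgr1 above 3. Set against the sorted cells' own marker, Fcer1g reached 21.6% of the level of Cd8b1 and Fcgr3 reached 9.59%. In the anti-IFNAR experiment these shares were 32.6% and 32.7%. Other T cell genes stood lower than Cd8b1. In CD8 T cells of untreated and SCRT tumors Fcer1g lay above Cd3e (561.0) but below Cd3d (1031) and Cd8a (1217). In the anti-IFNAR experiment Fcgr3 and Fcer1g lay above Cd3e (323.8) and Cd3d (340.0) but below Cd8a (660.1). The macrophage list was also set against the list of CD8 T cell genes (Cd8a, Cd8b1, Cd3e and Cd3d), on summed shares without length scaling. It came to 115.0% of that list in the anti-IFNAR experiment, compared with 48.5% in the other CD8 T cell fit. Of these macrophage sums, the single gene Lyz2 held 1125 of 2230 and 1328 of 2107, in that order.

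Genes of other cells that carry Fc gamma receptors were looked at as well. The NK cell list held 3 genes, each higher in both CD8 T cell fits than in CAFs and tumor cells. Ncr1, a receptor that marks NK cells, had a mean of 20.01 and 6.69 in the CD8 T cell fits and 0.631 in CAFs and tumor cells. Klrb1c, which encodes the NK1.1 antigen, had 275.2, 27.8 and 0.032, in that order. Klrk1, which activated CD8+ T cells also use, had 11131, 979 and 7.34. The 4 neutrophil genes did not move together. Among them, S100a8 and S100a9 had means of 690 and 865 in CD8 T cells of untreated and SCRT tumors, against 19.4 and 30.99 in the anti-IFNAR experiment. Csf3r, the receptor for granulocyte colony-stimulating factor, had 440.1 and 264.7 in these fits, and its share of the summed mean was 1.73-fold higher in the anti-IFNAR experiment, whereas the ratios for S100a8 and S100a9 were 0.0807 and 0.103. In CAFs and tumor cells the means were 34.1 for S100a8, 3.10 for S100a9 and 7.16 for Csf3r. Ly6g was low in both CD8 T cell fits (3.73 and 2.20) and had a mean of 96.7 in CAFs and tumor cells. The part of these cells in the receptor means was not tested.

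Ptprc, which encodes the CD45 that the CAF and tumor cell gates exclude, had a mean of 50.4 in CAFs and tumor cells and a length-scaled level of 0.320 there. Each of the 5 Fc gamma receptor genes lay above that level in the same fit, from 3.12 for Fcgr2b to 38.4 for Fcer1g. So did all 8 macrophage genes, of which Itgam was lowest at 0.7985. In CD8 T cells of untreated and SCRT tumors Ptprc had a length-scaled level of 282.9, which Fcer1g alone of the 5 exceeded. In the anti-IFNAR experiment Ptprc stood at 193.7, and Fcgr3, Fcer1g and Fcgr4 exceeded it. The order in these CD8 T cell fits depends on dividing by exon length. As deposited, the mean of Ptprc was 54999 in untreated and SCRT tumors and 12512 in the anti-IFNAR experiment, above all 5 genes. The share of Ptprc in the summed mean was 978-fold higher in CD8 T cells of untreated and SCRT tumors than in CAFs and tumor cells. The Fc gamma receptor genes were 7.71-fold to 28.8-fold higher, and the macrophage genes 6.96-fold to 38.3-fold.

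**Figure D3:**
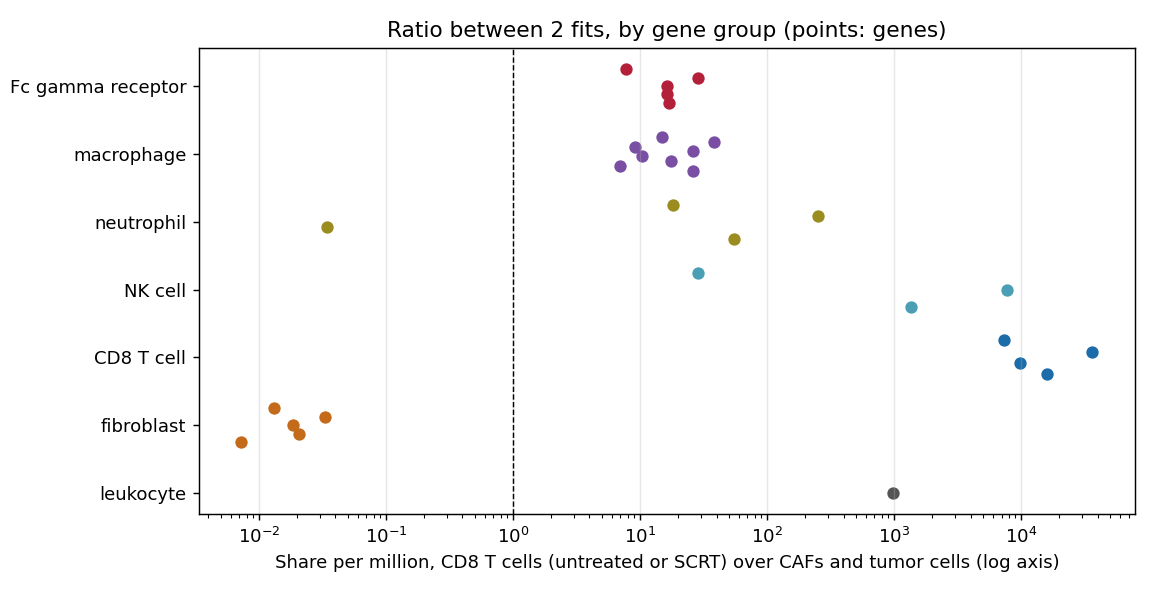
Share of the summed mean in CD8 T cells of untreated and SCRT tumors over that in CAFs and tumor cells, on a log axis, with 1 point per gene and the dashed line at equal shares. The Fc gamma receptor genes (7.71 to 28.8) lie inside the range of the macrophage genes (6.96 to 38.3). The neutrophil genes run from 0.0345 to 250, with both ends resting on low means, and the NK cell genes from 28.4 to 7710. The CD8 T cell genes (7340 to 36300) lie above the Fc gamma receptor genes, and the fibroblast genes (0.00729 to 0.0333) lie below them.

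The promoters of the activating receptors are shown because the study concerns interferon, and Fcgr1 is a known interferon-induced gene. In RefSeq windows of GRCm38.p6 from 250 bases before to 50 bases after a gene's start, 3 motifs were looked for on both strands: the core bound by the myeloid factor PU.1 (GAGGAA), a core of the interferon-stimulated response element (ISRE, a pair of GAAA repeats with 2 bases of any kind between them) and the SP1 box (GGGCGG). All 5 genes matched a window, and Fcgr3 had 2 overlapping ones, of which the first is used here. The PU.1 core was found in Fcgr1, Fcgr3 and Fcgr4, at 55, 6 and 22 bases before the start, and in 28.3% of all 32851 windows. The ISRE core was found in Fcgr4 alone, at 73 bases before the start, and in 3.44% of windows. The SP1 box was found in 0 of the 5 genes and in 35.7% of windows. Below, the 120 bases before the start are given with these letters in capitals, the PU.1 core reading TTCCTC on the strand shown, and no match overlaps another. Of the bases shown for Fcgr4, 6 fall in an annotated GENCODE exon, and 0 do for the other two.

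Fcgr1, chr3:96293970-96294089, minus strand: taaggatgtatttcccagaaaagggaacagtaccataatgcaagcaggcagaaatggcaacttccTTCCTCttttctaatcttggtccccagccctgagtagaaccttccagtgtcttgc
Fcgr3, chr1:171059404-171059523, minus strand: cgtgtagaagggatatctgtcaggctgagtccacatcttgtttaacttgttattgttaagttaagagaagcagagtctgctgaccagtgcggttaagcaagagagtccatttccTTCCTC
Fcgr4, chr1:171018806-171018925, plus strand: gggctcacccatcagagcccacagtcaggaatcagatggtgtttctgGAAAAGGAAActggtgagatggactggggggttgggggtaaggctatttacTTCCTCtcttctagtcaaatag

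These matches describe letters in the reference sequence, and binding at them was not measured here.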

How the data were processed

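Sorted cells were sequenced as bulk RNA in single-end reads of 100 bases, with about 25000000 reads per sample per the labels. The submitters' processing notes name fastp 0.20.1, STAR 2.7.6a, DESeq2 1.28.1, R 4.0.2 and the build mm39, with no role or order, and the counting tool and annotation are not given in the sources used here. The signal analysed is the mean normalized count, which the authors made by dividing read counts by DESeq2 size factors and averaging over all libraries of a fit. The other 4 columns of each of the 10 deposited tables (log2 fold change, statistic, p-value and adjusted p-value) are the authors' own comparisons of groups and were not used, so the 5 members and the marker lists, which were chosen with earlier results of these data known, carry no test. The count test planned for values per library was therefore not run. It was checked that 0 genes differed in their mean between tables of a fit.

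Ranks used genes with a mean of at least 1, or of at least 10 as an alternative. Lengths were unions of exons by symbol in GENCODE M21 (GRCm38), which covered 96.4% to 98.7% of those genes and 86.2% to 99.6% of the summed mean. Shared runs were searched in all GENCODE M21 transcripts on both strands, and coding sequences were aligned locally with Biopython 1.88. The files' build, mm39, was not used for any coordinate. Tables were handled with pandas 2.3.3 in Python 3.11.15, and the length scaling, ranks and run search were tested on simulated data. The genes named are the 5 members and the genes of the fixed marker lists, and the ribosomal RNA genes and Gm38204 were named after their values were seen. A marker list, a promoter motif and a neighbouring gene are not reported here.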

Additional observations from a re-analysis of the deposited data

How the results depend on the processing

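Dividing by exon length moved 8 of the 15 places that the 5 genes take by mean normalized count (place 1 is the highest). In CD8 T cells of untreated and SCRT tumors Fcgr4 moved to place 3 and Fcgr2b to 4. In the anti-IFNAR experiment Fcgr1 moved to 4, Fcgr2b to 5 and Fcer1g to 2, and in CAFs and tumor cells Fcgr3 moved to 2, Fcgr4 to 3 and Fcgr2b to 5. The longest coding transcript as length, chosen after seeing the data, moved 7 places, to the same ones except that Fcgr2b stood at 4 in the anti-IFNAR experiment, where Fcgr1 kept its place. With it the activating receptors were 6.52, 5.64 and 5.21 times Fcgr2b, and Fcer1g was 1.33, 0.457 and 1.56 times the binding chains, in the order of the fits above. Ranks in place of means cannot alter the order of the 5 genes and so say nothing about its stability. Raising the minimum mean for ranked genes from 1 to 10, also chosen after seeing the data, lowered the percent of genes below each gene in CAFs and tumor cells to 27.8 for Fcgr1, 29.3 for Fcgr3, 24.2 for Fcgr4, 29.6 for Fcgr2b and 36.3 for Fcer1g. In the CD8 T cell fits it moved these percents by less than 1.5 times. Leaving out a replicate, another normalization and a count filter were not run, since only means over a fit were used. No paired analysis was possible because the columns used carry no replicate. Low levels are limited by the unknown depth.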
